A study of Homo sapiens with 2 samples.

Results

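The genes described here carry the names of mitochondrial ribosomal proteins and were measured by RNA-Seq in HEK293T cells. They were chosen by name alone, as protein-coding genes whose symbol is MRPL or MRPS followed by a number, with or without a final letter A, B or C. The annotation held 78 such genes, and 76 of them had a row among the 57736 genes of the tables (48 MRPL and 28 MRPS genes). MRPL45 and MRPS21 were not analysed here. HEK293T is an established human line derived from embryonic kidney cells that expresses the large T antigen of SV40. It was sampled as 1 group of 2 libraries of poly(A)+ RNA, labelled wild type and replicates 1 and 2, from cells grown in serum-containing medium with no treatment. The labels do not say whether the replicates came from separate cultures, so their spread may be technical. There was no second group, and therefore levels were compared between genes and between the replicates, not between conditions.

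The libraries held 10593491 and 10104118 estimated counts, and a count of 0 would allow up to 3 counts, that is 0.283 CPM in replicate 1 and 0.297 CPM in replicate 2. These limits and the counting intervals given later cover counting error only, because PCR copies of a molecule are counted as separate reads. The labelled tissue is kidney. Of 10 nephron marker genes 2 were detected, LRP2 at 8.28 and 9.96 TPM and PAX2 at 4.34 and 2.47 TPM, and of 4 analysed markers of blood, fibroblast and liver cells only COL1A1 was, at 10.3 and 7.51 TPM.

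Mitochondria have their own ribosome, which translates the few mRNAs of the mitochondrial chromosome into core subunits of the respiratory chain and of ATP synthase. Its ribosomal RNAs are transcribed inside the organelle, whereas all of its proteins are encoded in the nucleus, made in the cytosol and imported. Compared with bacterial ribosomes it holds less RNA and more protein, since many proteins with no bacterial counterpart have been added to the conserved ones.

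All 76 genes were detected, that is, each replicate gave them a TPM of at least 1, against 63.7% of 19391 protein-coding genes. TPM, the authors' measure of transcript abundance, is scaled by transcript length and may be compared between genes. The lowest value of any member was 20.3 TPM in replicate 1 and 19.3 TPM in replicate 2. The median over the members was 71.9 TPM in replicate 1 and 69.8 TPM in replicate 2, against 21.4 and 21.0 TPM for the 12345 detected protein-coding genes. On the log2(TPM + 1) scale the medians differed by 1.71 in replicate 1 and by 1.69 in replicate 2. Thus 74 of the 76 members lay above the median of detected protein-coding genes, 58 lay above their upper quartile of 49.0 TPM, and 16 lay above their 90th percentile of 105 TPM. The members also spanned a narrow range: the middle 38 of them lay between 50.3 and 101 TPM, a 2.01-fold range, whereas the same quartiles of detected protein-coding genes differed 6.14-fold. The SD of log2(mean TPM + 1) was 0.73 over the members and 1.82 over the detected protein-coding genes.

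**Figure D1:**
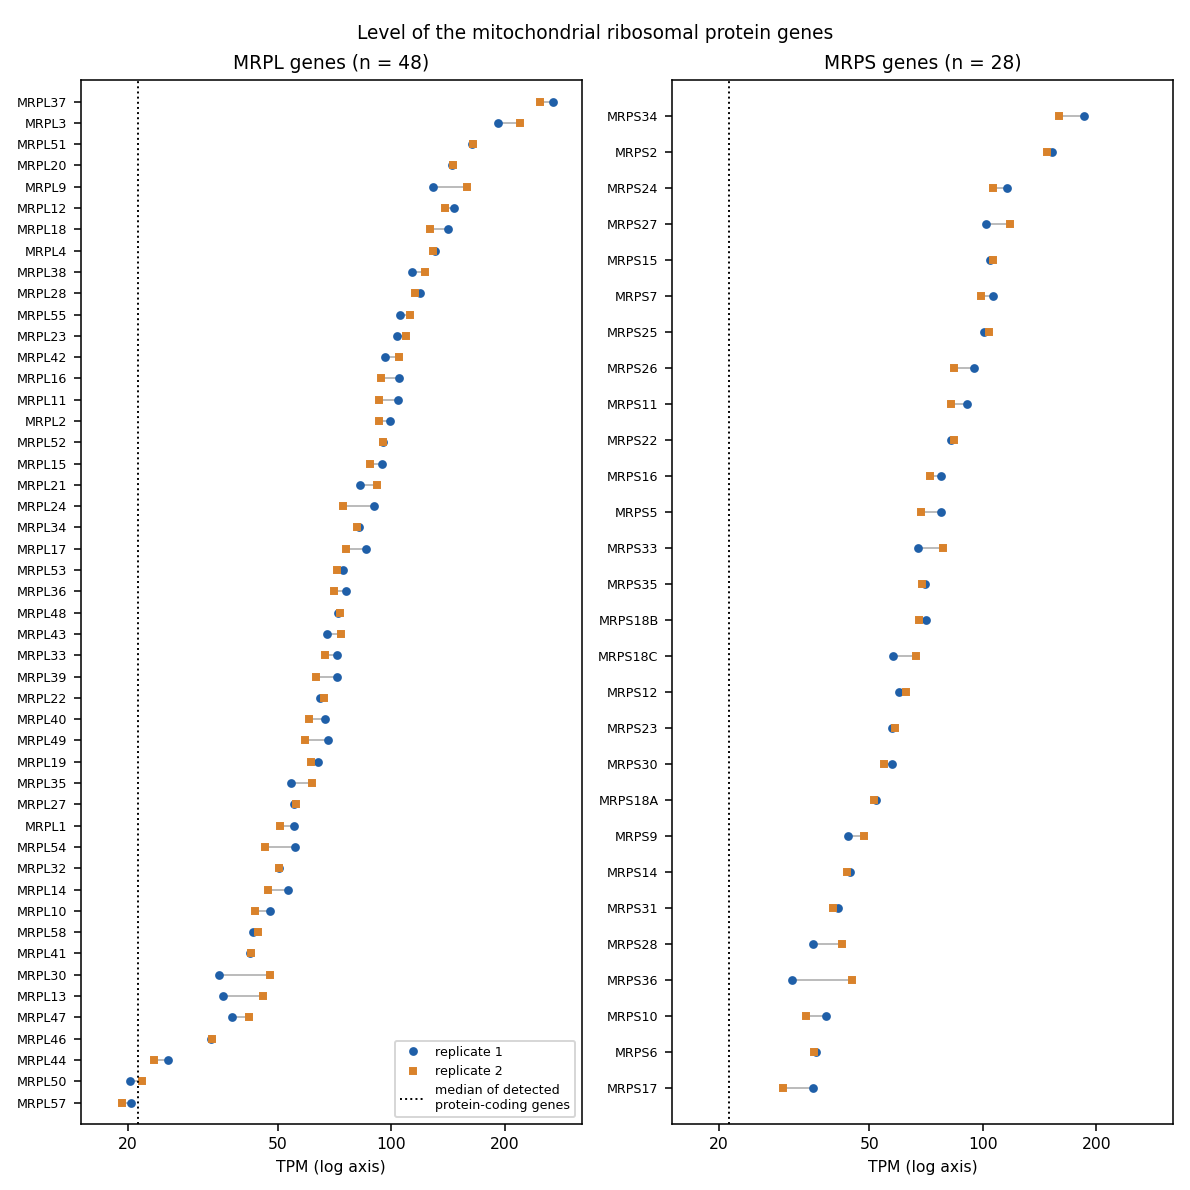
TPM of each of the 48 MRPL genes (left) and 28 MRPS genes (right) on a log axis, with a circle for replicate 1, a square for replicate 2 and a line joining them. The genes are sorted by mean TPM, from MRPL57 (19.8 TPM) to MRPL37 (258 TPM), and 74 of the 76 means lie to the right of the dotted median of detected protein-coding genes (21.2 TPM).

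The members' part of all TPM was 0.615% in replicate 1 and 0.608% in replicate 2, or 0.611% ± 0.00451 (SD, n = 2). Over protein-coding genes alone this share was 0.878% ± 0.0133 (SD, n = 2). In estimated counts, which are not corrected for length, the share was 0.430% ± 0.00524 (SD, n = 2). The members are short: their estimated length had a median of 986 nt, against 2116 nt for detected protein-coding genes, and 74 of the 76 were shorter than that median.

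MRPL37 had the highest level, with 269 TPM in replicate 1 and 248 TPM in replicate 2. It encodes a mitochondria-specific protein of the large subunit and lies on chromosome 1 from 54649714 to 54691137 (GRCh37). MRPL3 was next, with 192 and 219 TPM, and encodes a conserved protein close to the peptidyl transferase center. The values of these 2 genes did not overlap between the replicates, and those of MRPL3 did not overlap the values of MRPS34, a mitochondria-specific protein of the small subunit with 185 and 159 TPM. Below them the order was less certain. MRPS34 overlapped with MRPL51 (164 and 164 TPM), which lay above MRPS2 (153 and 148 TPM) and MRPL20 (145 and 146 TPM) in both replicates. MRPL9 had 129 and 159 TPM and so could not be placed among these genes. MRPL12 (147 and 139 TPM), MRPL18 (141 and 127 TPM) and MRPL4 (131 and 129 TPM) completed the 10 highest genes, which held 26.9% of the TPM of all members.

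At the other end, MRPL57 had 20.4 and 19.3 TPM and MRPL50 had 20.3 and 21.8 TPM, so that the order of these 2 genes differed between the replicates. MRPL44, a large subunit protein related to double-stranded RNA nucleases, had 25.6 and 23.4 TPM, above both of them. MRPS17 followed with 35.5 and 29.5 TPM, MRPL46 with 33.2 and 33.5 TPM and MRPS6 with 36.1 and 35.8 TPM. The highest and the lowest member differed 13-fold in mean TPM. Along the whole order, the replicate values of neighbouring genes overlapped in 64 of 75 pairs, so most single ranks were not separated by these data.

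The sequence around the start of the genes was then examined, because it is the part of a gene where factors that act on many genes of one pathway may bind. RefSeq gives a window from 250 bases before to 50 bases after the start (GRCh38.p14), and 67 of the 76 members were matched by symbol. Where RefSeq lists several windows for a gene, as for 11 members, the first was used. Each window was searched on both strands for 7 short motifs, and shares were compared with those of all 14998 matched protein-coding genes. The ETS motif CCGGAAG, read by factors such as GABPA, was found in 28 windows, 41.8% (95% Wilson interval 30.7 to 53.7%) against 14.5% of all protein-coding windows. The YY1 motif AAGATGGCG was found in 13 windows, 19.4% (11.7 to 30.4%) against 2.83%. The NRF1 core GCATGCGC was found in 6 windows, 8.96% (4.17 to 18.2%) against 4.33%. Among the windows of detected protein-coding genes the shares were 19.7%, 4.09% and 5.66%, respectively. The NRF1 interval held both of these background shares (4.33% and 5.66%), so 6 windows did not separate NRF1 from them. The members are a chosen set and not a random sample of genes, so the intervals only describe the small number of windows. A match is a description of the letters and does not show that a factor binds there.

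The 4 members with the highest mean TPM among those holding the ETS motif are shown first, as 30-base windows in the direction of the gene with the motif in capitals. Where the motif lies on the opposite strand the capitals read CTTCCGG. Counted from the start of the gene, the first capital lies at -32, -71, -119 and -44, respectively. The windows are on chr3:131502985-131503014, chr16:1773187-1773216, chr12:6493363-6493392 and chr1:1407319-1407348, all on the minus strand.
MRPL3: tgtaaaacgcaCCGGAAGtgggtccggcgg
MRPS34: cctcttcctcgCTTCCGGccgcgaccgaac
MRPL51: gcgctccaaaaCTTCCGGcaggcggaccgg
MRPL20: cgaccttcgccCCGGAAGtatcgcaggggc

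These are the second to the fourth highest members and MRPL20, which is also among the 10 highest. In all, the 28 windows held 37 ETS matches, 18 of them wholly within the 60 bases before the start, and MRPS34 and MRPS22 held 3 matches each. The median level over the members with the motif was 69.7 TPM in replicate 1 and 72.1 TPM in replicate 2, and over those without it 75.9 and 69.1 TPM, so the order of the groups turned between the replicates.

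For YY1 the members with the highest mean TPM are shown in the same way, on chr17:75904859-75904888 (minus strand), chr7:43869479-43869508 (minus strand) and chr12:93467512-93467541 (plus strand). Here the motif starts 6, 19 and 8 bases after the start of the gene and not before it.
MRPL38: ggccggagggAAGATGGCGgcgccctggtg
MRPS24: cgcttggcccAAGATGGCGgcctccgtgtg
MRPL42: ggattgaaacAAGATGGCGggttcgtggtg

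Of 14 YY1 matches, 10 lay beyond the start and 12 read in the direction of the gene. The letters of this motif contain ATG, and whether that ATG is the start codon was not examined. The NRF1 core is shown for the members with the highest mean TPM that hold it, on chr14:22829701-22829730 (plus strand), chr11:6683403-6683432 (minus strand) and chr6:30617806-30617835 (plus strand). The match of MRPL17 reads on the opposite strand and overlaps a second match to the same core.
MRPL52: ccactgagaatGCATGCGCtgaacgacaat
MRPL17: caggctctgatGCGCATGCgcaaacacgtt
MRPS18B: agtttcctgaaGCATGCGCagttgcctttc

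All 8 NRF1 matches lay before the start, at a median position of -61. No match to one of these 3 motifs overlapped a match to another. At least 1 of them was present in 38 of the 67 windows, ETS and YY1 were both present in 4, and 29 windows held none. The other 4 motifs were about as frequent as in all protein-coding windows, or less frequent. The SP motif GGGCGG was found in 61.2% (49.2 to 72.0%) of the members' windows against 59.7%, and against 71.7% of the windows of detected genes. The NFY motif CCAAT was found in 28.4% (19.0 to 40.1%) against 36.6%. The E-box CACGTG, read by MYC, was found in 7.46% (3.23 to 16.3%) against 8.90%. The TATA box TATAAA was found in 2 windows, 2.99% (0.822 to 10.2%) against 9.41%. Each of these intervals held the shares of all and of detected protein-coding windows, so these 4 motifs were not separated from them either.

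**Figure D2:**
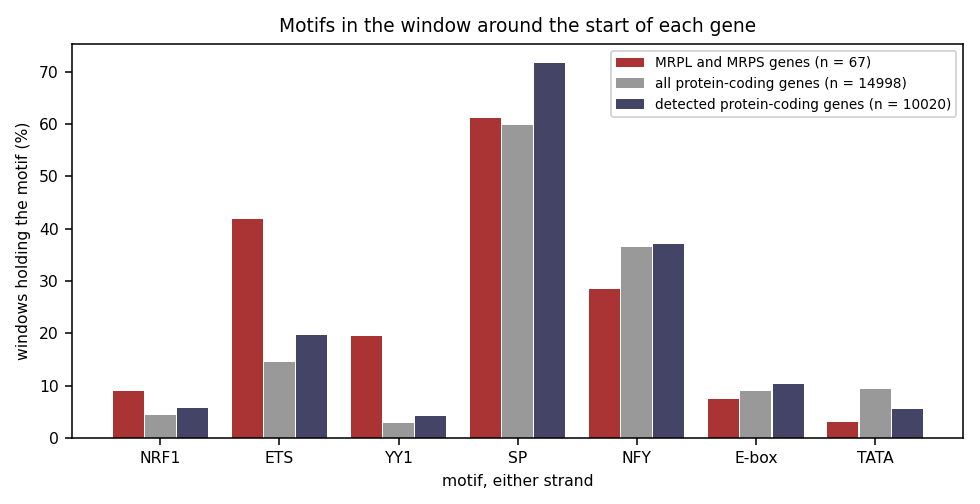
Percentage of windows (250 bases before to 50 bases after the start) that hold each motif on either strand, for 67 members, all 14998 matched protein-coding genes and the 10020 of them that were detected. The members' bar stands above both others for ETS (41.8%), YY1 (19.4%) and NRF1 (8.96%), and below that of detected genes for the remaining motifs. For NRF1 and the remaining motifs the interval given in the text includes both other bars.

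The members were next grouped by subunit and by their place in the ribosome. The median was 73.3 and 72.6 TPM for the 48 MRPL genes in replicates 1 and 2, and 68.9 and 68.1 TPM for the 28 MRPS genes. The difference of the medians on the log2(mean TPM + 1) scale was 0.07 (0.09 in each replicate taken singly). Some proteins named after the small subunit are found elsewhere. With MRPS30 and MRPS18A counted as large subunit proteins, where structures place them, and MRPS36 left out, it was -0.03 on the mean of the replicates, but 0.03 and 0.04 in replicates 1 and 2 taken singly, so that its sign also changed with the way the replicates were combined. In summed TPM the MRPL genes held 4054 in replicate 1 and 4022 in replicate 2, and the MRPS genes held 2091 and 2060.

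Proteins conserved from bacteria had a median of 74.0 TPM over 44 genes, and mitochondria-specific proteins had a median of 69.5 TPM over 30 genes. MRPL55 (105 and 112 TPM), whose class was set as unclear, and MRPS36 were left out of both groups. In the large subunit, assigned by structure, the medians were 81.5 TPM for 29 conserved and 63.6 TPM for 20 mitochondria-specific proteins. In the small subunit they stood the other way round, with 62.3 TPM for 15 conserved and 78.1 TPM for 10 mitochondria-specific proteins. These are medians over genes, which are not replicates, and no test was made.

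The proteins next to the peptidyl transferase center, where peptide bonds are formed, had the highest median of the groups with 5 or more genes, 105 and 93.9 TPM in the replicates. MRPL3, given above, led this group, followed by MRPL4 (131 and 129 TPM), MRPL16 (105 and 93.9 TPM) and MRPL2 (99.1 and 92.6 TPM). MRPL27, whose bacterial counterpart reaches towards the transfer RNA at the center, stood apart with 55.2 and 55.8 TPM. The stalk, which recruits the translation factors, differed among its 3 analysed proteins. MRPL12, the stalk protein that binds these factors, had 147 and 139 TPM, and MRPL10, which holds it on the ribosome, had 47.8 and 43.4 TPM. MRPL11, at the base of the stalk, lay between them with 104 and 93.0 TPM. The values of these 3 genes did not overlap.

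The ring around the exit of the peptide tunnel was represented by 6 genes with a median of 75 and 70.3 TPM. MRPL23 was highest with 103 and 109 TPM and MRPL47 lowest with 37.8 and 42.0 TPM. Between them lay MRPL24 (89.9 and 74.3 TPM), MRPL17 (85.5 and 75.9 TPM), MRPL22 (64.6 and 66.4 TPM) and MRPL32 (50.4 and 50.3 TPM). MRPL24 and MRPL17 overlapped each other, while MRPL22 lay below both and above MRPL32 in each replicate. The central protuberance is a projection of the large subunit that contacts the small one. Its 5 genes ran from MRPL46 (33.2 and 33.5 TPM) to MRPL18 (141 and 127 TPM), with MRPL40 (66.9 and 60.6 TPM), MRPL48 (72.1 and 73.1 TPM) and MRPL38 (113 and 123 TPM) between them. No values overlapped between these 5 genes.

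In the small subunit the 5 proteins near the decoding site and the mRNA path had a median of 77.4 and 68.7 TPM. MRPS24 (116 and 106 TPM) and MRPS7 (106 and 98.8 TPM) were the highest and nearly touched, with MRPS24 above in each replicate. MRPS5 followed with 77.4 and 68.7 TPM and MRPS12, the counterpart of the bacterial protein in which streptomycin resistance arises, with 59.9 and 62.7 TPM. MRPS9 was lowest with 44 and 48.3 TPM. The 9 mitochondria-specific small subunit proteins had a higher median of 82.5 and 83.9 TPM, but ranged from MRPS31 (41.4 and 40.0 TPM) to MRPS34 (185 and 159 TPM). MRPS27 (102 and 118 TPM), MRPS25 (101 and 104 TPM), MRPS26 (95.1 and 83.9 TPM) and MRPS22 (82.5 and 83.9 TPM) lay in the upper part of this range. MRPS33 (67.5 and 78.3 TPM), MRPS35 (70.4 and 69.1 TPM) and MRPS23 (57.5 and 58.4 TPM) lay in the lower part.

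The MRPS18 genes are paralogs whose products occupy different places: that of MRPS18C is the small subunit protein in the bacterial position, that of MRPS18B lies elsewhere in the small subunit, and that of MRPS18A lies in the large subunit. MRPS18B had 70.7 and 67.6 TPM, MRPS18C had 57.9 and 66.6 TPM, and MRPS18A had 52.2 and 51.3 TPM. MRPS18B lay above MRPS18C, narrowly in replicate 2, and both lay above MRPS18A in each replicate. MRPS30, a large subunit protein despite its name, had 57.6 and 54.6 TPM. MRPS36 is now known as a part of the 2-oxoglutarate dehydrogenase complex and not of the ribosome, and had 31.2 and 45.1 TPM.

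The levels of the members were set beside those of other genes needed for mitochondrial translation. The 5 analysed mitoribosomal proteins with names of another kind were detected, from CHCHD1 (24.3 and 27.9 TPM) to DAP3, a GTP-binding protein of the small subunit (171 and 167 TPM), and 4 of the 5 lay above the median of the members. All 15 genes listed as translation factors were detected with a median of 43.3 TPM. They ran from the release factor MTRF1 (12.8 and 11.5 TPM) to the elongation factor TUFM (296 and 278 TPM). The list also holds LRPPRC, SLIRP, TACO1 and OXA1L, which are not translation factors in the strict sense. Only 4 of these 15 lay above the members' median, namely TUFM, SLIRP (210 and 203 TPM), LRPPRC (161 and 165 TPM) and OXA1L (105 and 105 TPM). All 21 analysed genes of ribosome assembly and rRNA modification were detected with a median of 31.5 TPM, from the helicase DDX28 (13.3 and 13.7 TPM) to C1QBP, an abundant protein of the matrix (646 and 664 TPM). In that list 3 of 21 genes lay above the members' median. For the 17 mitochondrial aminoacyl-tRNA synthetases, which charge the tRNAs, the median was 28.1 TPM and the range 7.98 (FARS2) to 106 TPM (IARS2). Of the 5 genes of mitochondrial transcription 1 lay above the members' median, the DNA-packaging factor TFAM (105 and 103 TPM), and the median was 16.3 TPM.

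Genes listed as proteins of the cytosolic ribosome, the other ribosome of the cell, had a median of 1211 TPM over the 84 detected of 87 genes. That list was drawn by symbol and also holds genes with related names, such as RPL3L, RPL10L and RPL7L1. RPS2 was the highest gene of the list with a mean of 4930 TPM, whereas MRPL37, the highest member, had 258 TPM. Values of single cytosolic ribosomal protein genes are uncertain, because many pseudogenes resemble them.

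**Figure D3:**
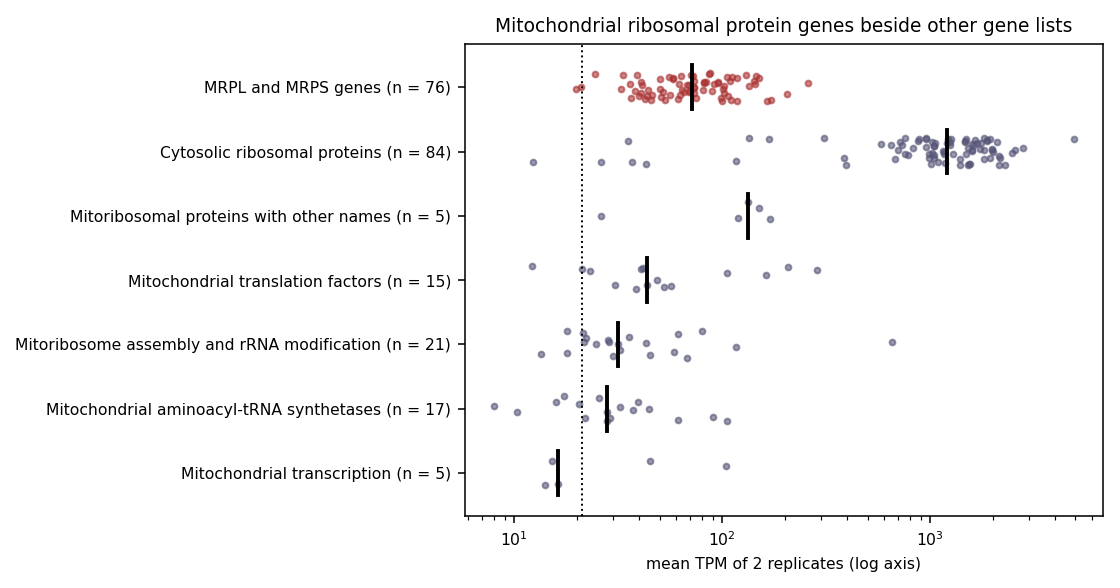
Mean TPM of the replicates on a log axis for the members and for the detected genes of 6 other lists, with 1 point for each gene, a bar for the median of each list and a dotted line for the median of detected protein-coding genes (21.2 TPM). The members' median is 71.6 TPM. It lies above those of the listed translation factors (43.3 TPM), assembly genes (31.5 TPM), synthetases (28.1 TPM) and transcription genes (16.3 TPM). It lies below those of the 5 mitoribosomal proteins with other names (134 TPM) and of the cytosolic ribosomal proteins (1211 TPM).

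The replicates were then compared gene by gene. As log2(TPM + 1), the absolute difference between them had a median of 0.11 over the members, 0.12 over all detected protein-coding genes and 0.10 over the 6065 protein-coding genes in the members' range of TPM. Pearson's r of log2(TPM + 1) over the 76 members was 0.978, and their rank correlation (Spearman's rho) was 0.979. These values are across genes from the same pair of libraries and carry no p-value. A difference above 0.2 was found in 11 members, with MRPS36 farthest at 0.52. Part of these differences came with a change in the transcript length that the authors' tool estimated for each library. MRPL9 differed by 0.30 in TPM although its estimated counts were 876 and 834, and its estimated length was 959 nt in replicate 1 and 778 nt in replicate 2. MRPS27 was similar, with 1448 and 1319 counts and lengths of 1955 and 1602 nt. The length changed by more than 5% in 21 members, and in 6 of the 11 with a difference above 0.2. Among these 6, the length of MRPS28 rose (520 and 551 nt) while its TPM rose too (35.6 and 42.4 TPM). The log2 ratio of the counts, scaled for library size, was below 0.2 in size in only 3 of the 11. In most of the 11 the counts therefore differed as well, as in MRPS36 with a log2 ratio of 0.54.

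Differences beyond counting error were sought with an exact binomial test, two-sided, on the rounded counts. The test sets one library against the other and says nothing of conditions. Among the 76 members 1 had an adjusted p under 0.05, whereas 693 of all 17920 genes tested did (3.87%). That gene was MRPL42, a mitochondria-specific protein of the large subunit on chromosome 12 from 93861290 to 93909990 (GRCh37). It had 1005 counts in replicate 1 and 1136 in replicate 2, a log2 ratio of 0.25 after TMM scaling, with an adjusted p of 0.00293 in the exact binomial test with Benjamini-Hochberg adjustment over all genes tested. In TPM the values were 96.3 and 105, and the estimated length of MRPL42 was 1447 nt in replicate 1 and 1561 nt in replicate 2.

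The members next in order did not pass. MRPL3 had 1574 and 1664 counts (adjusted p = 0.0507 in the same exact test), and MRPS36 had 114 and 157 counts (adjusted p = 0.0559 in the same exact test). The exact Poisson interval of the latter, the member with the fewest reads, was 94.0 to 137 counts in replicate 1 and 133 to 184 in replicate 2. This interval does not cover how reads were divided between MRPS36 and its pseudogene MRPS36P1, described below. The pair together had 156 and 179 counts, and this sum was not tested. MRPL37, the member with the most reads, had 2843 and 2500.5 counts (adjusted p = 0.112 in the same exact test). Without adjustment the p was under 0.05 for 13 members, 17.1%, against 13.3% of the genes tested. The log2 ratio of replicate 2 to replicate 1 was negative for 44 members, 57.9%, against 48.5% of 8535 protein-coding genes in the same range of counts, and its median was -0.04 against 0.00.

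**Figure D4:**
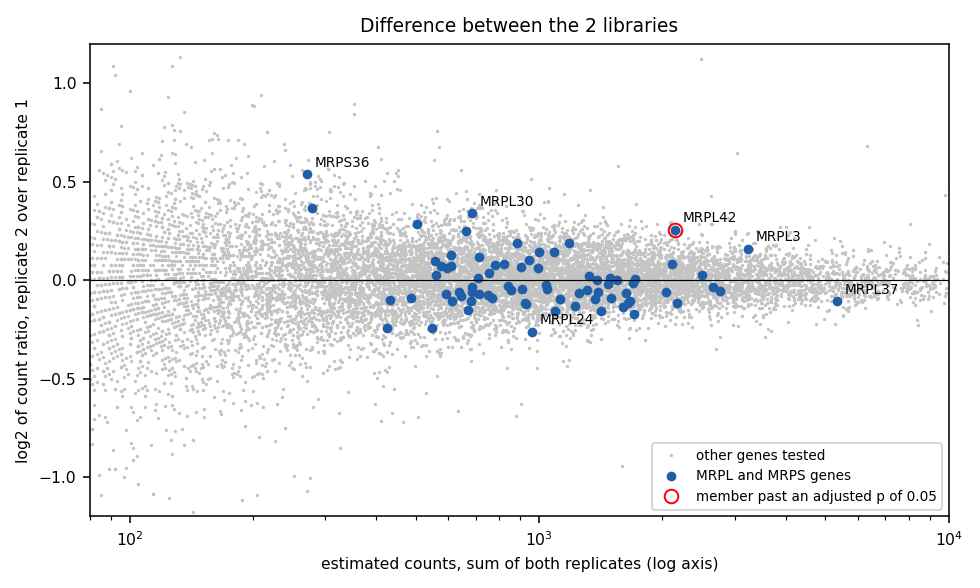
Log2 ratio of the counts in replicate 2 to those in replicate 1 after TMM scaling, against the summed estimated counts on a log axis, for the 76 members (large points) and the other genes tested (small points). The members lie within the cloud of other genes around 0, and the circled MRPL42 (log2 ratio 0.25) is the member that passed an adjusted p of 0.05.

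Many members have near-copies elsewhere in the genome, and so the certainty of their counts was examined. The deposited counts are estimates that divide a read among all genes it fits, and a count that is not whole (by more than 0.005) shows such sharing. This held for 42 of the 76 members, 55.3%, against 49.4% of detected protein-coding genes. A whole count does not exclude sharing. MRPS24 had whole counts (546 and 501) with posterior SDs of 9.21 and 8.15 counts, and the posterior SD was 0 in both replicates for only 25 members. The uncertainty was small for nearly all members. The posterior SD of the count, which describes how firmly reads could be assigned, was above 1% of the count in 13 members, above 2% in 7 and above 20% in MRPL30 alone.

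MRPL30, a conserved protein of the large subunit, lies on chromosome 2 from 99797615 to 99816024 (GRCh37). Its counts were 311 and 373, with posterior SDs of 108 and 40.7 counts. It overlaps ENSG00000241962, annotated as protein-coding on the same strand, which had 561 and 505 counts with posterior SDs of 108 and 40.6 counts. The one was lower in replicate 1 and the other in replicate 2, and the sum of both was 872 and 878 counts. MRPL30 alone had a log2 ratio of 0.34 between the libraries (adjusted p = 0.0540 in the exact binomial test). For the sum, a comparison added after the data were seen, it was 0.09 (adjusted p = 0.693 in the exact binomial test). The level of MRPL30, 34.8 and 47.6 TPM, is therefore uncertain, and so is its place in the order of members.

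The annotation also named 64 pseudogenes after 33 of the members, and 43 of the 64 had no counts in either replicate. MRPL42 and MRPS36 had the most, with 5 each. Together the pseudogenes had 174 and 173 estimated counts, and their summed TPM was 0.743% and 0.623% of that of the members. The highest was MRPS36P1, a processed pseudogene on chromosome 3, with 41.7 and 22.2 counts and 21.6 and 11.9 TPM. The counts of MRPS36 and MRPS36P1 summed to the whole numbers 156 and 179, so their reads were shared between the pair. MRPL3P1 (3.95 and 5.12 TPM), MRPL50P2 (4.82 and 3.57 TPM) and MRPS31P5 (4.09 and 3.32 TPM) were also among the 6 that were detected. Against their parents these were small for MRPL3P1 (2.2% of the TPM of MRPL3) and larger for MRPL50P2, beside the 20.3 and 21.8 TPM of MRPL50. A count that was not whole was found in 23 of the 33 members with a pseudogene and in 19 of the 43 without one. Overlapping genes may be a second source of sharing. An overlap on the same strand was annotated for 20 members, and 47 members overlapped an annotated gene on either strand. Not every overlap came with a sign of sharing. MRPS35 overlaps a gene on its own strand, but had whole counts (676 and 651) and a posterior SD of 0 in both replicates. The sources used here do not state whether reads were counted by strand. Sharing was seen across strands, however. MRPS27 and PTCD2 overlap on opposite strands, and their counts were not whole but summed to the whole numbers 1558 and 1434. Counts of overlapping members may thus hold reads of a gene on the other strand.

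**Figure D5:**
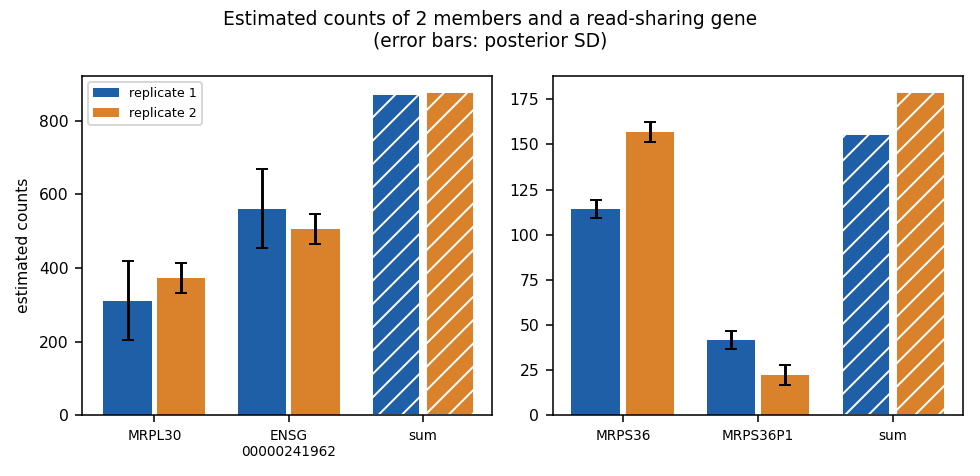
Estimated counts of MRPL30 and ENSG00000241962 (left) and of MRPS36 and MRPS36P1 (right) in replicates 1 and 2, with the posterior SD as error bars, and their sums (hatched bars). The sums of the left pair are 872 and 878 counts, closer to each other than the counts of MRPL30 (311 and 373).

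The position of the genes was described last. The 76 members lie on 21 chromosomes, with at most 8 on 1 chromosome (chromosome 2) and none on chromosome X, which holds 4.15% of protein-coding genes. Of the members, 17 (22.4%) start within 1000 bp of a protein-coding gene on the opposite strand that is read in the other direction, against 8.46% of all and 11.5% of detected protein-coding genes. The median distance was 77 bp. All 17 partners were detected, and the member was the higher of the pair in 11 cases. The 17 members include MRPL46 and MRPS11, which are partners of each other, so their pair was counted from both sides. Only the count from the side of MRPS11 is among the 11. MRPL49 starts 6 bp from FAU, which encodes a cytosolic ribosomal protein and had 800.2 and 709.8 TPM, whereas MRPL49 had 67.8 and 59.1 TPM. MRPL18 (141 and 127 TPM) starts 109 bp from TCP1, a subunit of the cytosolic chaperonin, with 414 and 420.3 TPM.

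Several of the partners act in mitochondria themselves. MRPL36 (75.9 and 70.4 TPM) faces NDUFS6 (120.2 and 96.3 TPM) and MRPL47 (37.8 and 42.0 TPM) faces NDUFB5 (41.8 and 52.5 TPM), both at 41 bp and both with partners that encode subunits of respiratory complex I. MRPS12 (59.9 and 62.7 TPM) faces SARS2, the mitochondrial seryl-tRNA synthetase (40.4 and 38.8 TPM), at 181 bp. A single pair consists of members on both sides: MRPL46 and MRPS11 start 63 bp apart on chromosome 15, at 89010621 and 89010684 (GRCh37). The small subunit gene MRPS11 had 90.8 and 82.5 TPM and the large subunit gene MRPL46 had 33.2 and 33.5 TPM, so the partners of this pair did not share 1 level. In each of these pairs the values of the partners did not overlap between the replicates, with the exception of MRPL47 and NDUFB5.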

How the data were processed

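Poly(A)+ RNA of 2 HEK293T libraries was sequenced as 50 bp reads. Per the submitters' processing notes the authors used Trimmomatic 0.36, STAR 2.6.1c and RSEM 1.3.1 with the GRCh37 (hg19) genome, whereas the study's methods name featureCounts. The columns are those of RSEM. The strand setting was not given in the sources used here. The deposited tables hold estimated counts, TPM and FPKM for each gene. The transcript length and the posterior SD of a count were deposited by the authors as scores. A deposited table of pooled reads gave no value in the text. Shared reads make values of genes with near-copies or overlaps uncertain.

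Symbols, types and GRCh37 positions came from GENCODE release 44, which matched 96.1% of 57736 identifiers, and windows from RefSeq (GRCh38.p14). The members and all lists were chosen with earlier results of these data known. Named genes were the 10 highest and 6 lowest members, members that differed between the libraries or had a posterior SD above 20% of the count, the members of the structural groups, the MRPS18 paralogs, MRPS30 and MRPS36, genes of the lists, the 5 highest head-to-head partners and pseudogenes with a mean TPM of at least 1. MRPL52 was named for its motif after the windows were searched, and PTCD2 for its overlap with MRPS27. MRPL55 was named for its unclear class, and MRPS28 for its count and length.

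Levels were described without a test. Counts were rounded and the libraries compared by an exact binomial test against library sizes scaled by TMM in edgeR 4.0.16 (R 4.3.3), with scipy 1.17.1 and p-values adjusted by Benjamini-Hochberg over genes whose counts summed to at least 10. Log2 ratios used 0.5 added counts. Library sizes from DESeq2 1.42.0 were an alternative. The test was also run on simulated counts drawn with Poisson error only, which is the error the test assumes. That run therefore cannot tell how the test behaves where libraries differ by more than counting error.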

Additional observations from a re-analysis of the deposited data

How the results depend on the processing

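No paired analysis was possible because both libraries belong to 1 group. Of 73 alternatives 56 kept the result within its limits. All 76 members were detected with a TPM of at least 5, an FPKM of at least 1, at least 10 counts or without either replicate, and 75 with a TPM of at least 20.

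The log2 difference in level between the members and detected protein-coding genes was 1.75 with a pseudocount of 0.1, 1.69 on FPKM, 3.27 against all protein-coding genes with no filter, and 1.69 to 1.71 without either replicate. The share of the libraries was 0.430% in estimated counts, 0.878% of protein-coding TPM, and 0.608 to 0.615% without either replicate. The difference between the subunits was 0.07 with a pseudocount of 0.1 (0.0699), 0.12 as a mean (0.117), reversed at -0.03 (-0.0264) by structure on the mean of the replicates, and 0.0886 to 0.0896 without either replicate.

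The number of members that differed between the libraries was 2 with DESeq2 size factors (MRPL37 added, adjusted p = 0.0292, exact test) and 2 with a summed count of at least 100 (MRPL3 added, adjusted p = 0.0480, exact test), and the adjusted p of MRPL42 ranged from 0.00291 to 0.0115 in the exact test. Over all genes 752 of 17920 tested were called with DESeq2 size factors and 704 of 17920 with total counts. With no filter 564 of 30700 were called, and with a summed count of at least 100 it was 504 of 11885. Whole counts only gave 70 of 8675, and that setting tested only 34 of the 76 members. Members with a count that is not whole numbered 34 to 40 without either replicate, and 1 member had a posterior SD above 10%. The SP motif reversed to -10.5 percentage points against windows of detected genes. With any listed window per gene, added after the data were seen, ETS was found in 43.3% against 16.8%, YY1 in 19.4% against 3.32% and NRF1 in 8.96% against 4.99%. For each change the cause was not tested. Depth limits the members with the fewest reads most, and MRPS36 and MRPS28 had 114 and 125 counts in replicate 1.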
